A study of Homo sapiens with 8 samples.

Results

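The 9 genes JUN, JUNB, JUND, FOS, FOSB, FOSL1, FOSL2, ATF3 and BATF3 encode subunits of AP-1, and the acetylated chromatin around them was examined with and without knockdown of NRF2 in the lung adenocarcinoma line A549, of human origin. H3K27ac, histone H3 acetylated at lysine 27 and a mark of active promoters and enhancers, had been mapped by chromatin immunoprecipitation and sequencing, and each library came with its own list of peaks. Peaks of the 6 lists that overlapped by at least 1 base were merged into 49186 regions, and 61 of these lay in the body of an AP-1 gene or within 50 kb of it. Genes were chosen as a family and not by their values in these libraries, though with earlier results of these data known. All 9 were found in the annotation. Of the 61 regions, 20 held the start of a protein-coding transcript, 7 overlapped another exon, 7 lay in introns and 27 were intergenic. ATF3 and BATF3 are neighbours, and 2 regions belong to the windows of both.

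The 3 control libraries came from cells given control siRNA, and the 3 NRF2 siRNA libraries from cells given siRNA 28 (replicate 1) or siRNA 30 (replicates 2 and 3). All cells were collected 48 h after transfection. An siRNA acts on the mRNA, so peak lists cannot check the loss of NRF2 itself. All libraries are of a single cell line, and per the study's methods the replicates were independent experiments. The control lists held 27941, 34747 and 41571 peaks and the NRF2 siRNA lists 23885, 34986 and 39108. List length varied more within groups than between them, and peaks were therefore compared by their rank within a list. Read counts were not in the lists, and the depth behind a peak was not used here. The peaks of replicate 1 are named without the flow cell identifier found in the other lists, in either group, so siRNA 28 and this batch cannot be told apart. In all 3 control libraries the starts of KRT8, KRT18 and EPCAM (epithelial genes) and of VIM (a mesenchymal gene) were under peaks. So were those of AKR1C1 and AKR1B10 (high in this line) and of CD68, listed as a blood cell gene. The starts of SFTPB, SFTPC and NKX2-1, which mark alveolar and lung lineage, were under a peak in 0 libraries. The same held for PTPRC, so the blood cell genes CD68 and PTPRC differed.

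AP-1 is a dimer of basic leucine zipper proteins. JUN proteins pair with one another or with FOS and ATF proteins and bind the palindrome TGACTCA, whereas dimers with ATF members prefer the longer TGACGTCA. Several of its genes are immediate early genes, which are transcribed within minutes of growth factor or stress signals. NRF2 is also a basic leucine zipper protein, which binds with small MAF proteins to the antioxidant response element, TGACNNNGC, a motif that shares its first bases with the AP-1 site. The comparison asked whether H3K27ac at the promoters and enhancers of the AP-1 genes depended on NRF2.

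A single region of the AP-1 genes rose with NRF2 siRNA, downstream of JUN, and 0 of the member start regions tested changed. Of the 61 regions, 28 (45.9%) were called in all 6 libraries, against 34.2% of all regions. Another 11 of the 61 were called in a single library, a share to be read against 21.8% of all regions. Of these 11, 8 were in control replicate 3, which has the longest list. Enrichment was tested in the 41 regions called in at least 3 libraries. In each library, regions were ranked by their highest fold enrichment and ranks were turned into normal scores, so that a difference of 1 is about 1 SD of all regions in that library. Of the 41 regions, 1 rose with NRF2 siRNA, a share to be read against 2.01% of all 32673 regions tested, and 0 fell, against 3.39% (limma, Benjamini-Hochberg adjusted p under 0.05 over all regions). At an unadjusted p under 0.05, 7 of the 41 passed, against 22.5% of all regions. The median score difference was 0.03, with 22 regions above 0 and 19 below, and the median over all regions tested was 0.02. The differences of 34 of the 41 regions were smaller than 0.5.

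Pairing the libraries by replicate number added calls in both directions. With the number as a block, 2 of the 41 regions fell (background 6.62%) and 2 rose (5.72%). In replicates 2 and 3 alone, which share siRNA 30, 2 fell (6.04%) and 3 rose (5.26%). With all lists cut to the length of the shortest, 35 regions were tested, of which 0 fell (5.70%) and 2 rose (5.11%). All these counts are from limma at the same threshold, and the regions concerned are described below by gene.

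Regions away from coding starts varied more than those at them. The 16 tested regions with a coding start had differences from -0.34 to 0.24, whereas the 25 others ran from -1.14 to 1.32. Both ends of the wider range are regions without a peak in some libraries, and this contrast was not tested. The 3 libraries of one group did not overlap those of the other in 6 regions that were higher (14.6%, background 14.6%) and 4 that were lower with NRF2 siRNA (9.76%, background 13.6%). A library without a peak takes the tied lowest score of its list, which depends on how many regions that list calls, so such regions can stand apart by list length alone. Of the 28 regions called in all 6 libraries, 4 were apart and higher (background 14.6%) and 1 was apart and lower (12.1%). Widths, measured as bases under peaks and ranked in the same way, gave 0 calls in limma among the 41 regions, as in all regions (background 0%). At an unadjusted p under 0.05, 3 of the 41 widths passed, against 15.4% of all regions. With equal list lengths, 0 of the 35 regions narrowed (background 3.41%) and 1 widened (3.04%).

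**Figure D1:**
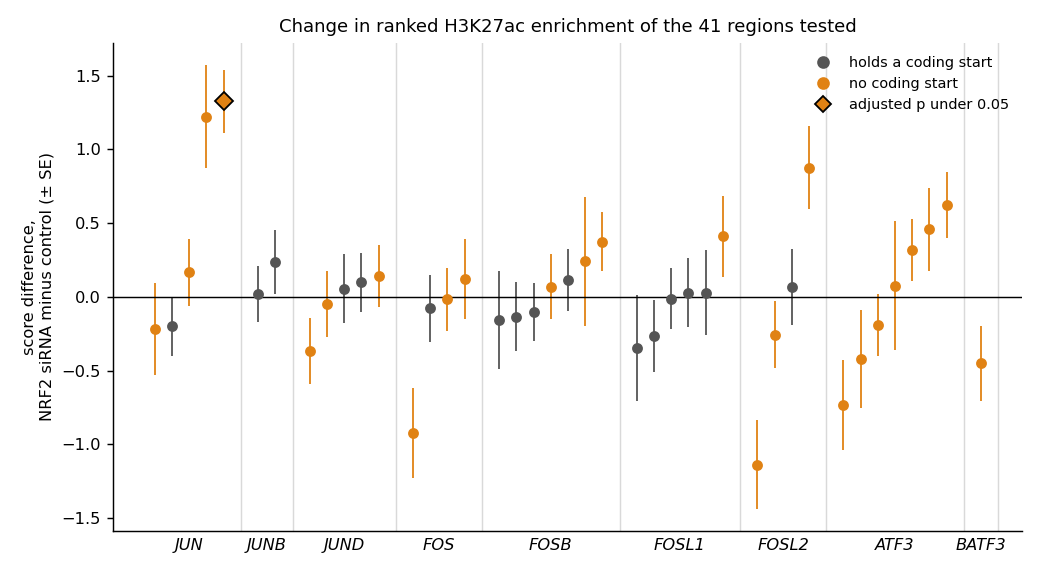
Score difference between NRF2 siRNA and control siRNA (vertical axis, normal scores, with the standard error) for each of the 41 regions tested, ordered within each gene. Regions holding a coding start (grey) lie near 0, and the farthest points on both sides are regions without one (orange). The diamond is the single region with an adjusted p under 0.05, near JUN. Regions shared by ATF3 and BATF3 are drawn under ATF3.

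JUN, the founding subunit of the family, had 5 regions, and all 5 were tested. The one that rose was a region outside coding genes 55.3 kb downstream of the JUN start, chr1:59191844-59194395 (hg19), which overlaps the edge of the window and a long noncoding RNA gene, ENSG00000283445. Its enrichment stood at percentiles 23.2 and 21.9 of the peak lists of control replicates 2 and 3, and control replicate 1 had no peak there. With NRF2 siRNA it stood at 43.5, 67.1 and 68. The groups did not overlap. The score difference was 1.32 ± 0.21 (SE), with a Benjamini-Hochberg adjusted p of 0.0132 in limma. The difference was 1.43 in the siRNA 28 pair and 1.09 and 1.45 in the siRNA 30 pairs. Replicates 2 and 3 alone gave 1.27 (limma, adjusted p = 0.0203). The peak itself covered 0, 806 and 1396 bases in control libraries and 1827, 2399 and 2325 bases with NRF2 siRNA, although width did not pass the test (limma, adjusted p = 0.0726). The call was lost without some single libraries. The difference was 1.47 without control replicate 2 (limma, adjusted p = 0.0547), 1.24 without control replicate 3 (adjusted p = 0.0666) and 1.29 without NRF2 siRNA replicate 2 (adjusted p = 0.0732).

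A second region of the same noncoding gene, 27.5 kb downstream of JUN (chr1:59218992-59222224), lay in the same direction. It is singled out here after its values were seen. Control libraries placed it at percentiles 16.4, 44 and 9.59 and NRF2 siRNA libraries at 60.1, 77.7 and 66.7. All NRF2 siRNA libraries were above all control libraries. The score difference of 1.22 ± 0.35 (SE) did not pass in the fit without pairing (limma, adjusted p = 0.0778), and passed when the replicate number was a block (adjusted p = 0.0171). The 200 bases around the AP-1 motif of each region are shown because these were the largest rises among the AP-1 genes. They were read from GRCh37, and capitals mark TGACTCA and TGACNNNGC on either strand.
55.3 kb downstream of JUN, chr1:59193148-59193347, plus strand: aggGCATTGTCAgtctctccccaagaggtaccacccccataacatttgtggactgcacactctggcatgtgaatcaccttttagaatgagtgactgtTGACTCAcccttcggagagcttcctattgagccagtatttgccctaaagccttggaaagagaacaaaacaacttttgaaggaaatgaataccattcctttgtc
27.5 kb downstream of JUN, chr1:59219810-59220009, plus strand: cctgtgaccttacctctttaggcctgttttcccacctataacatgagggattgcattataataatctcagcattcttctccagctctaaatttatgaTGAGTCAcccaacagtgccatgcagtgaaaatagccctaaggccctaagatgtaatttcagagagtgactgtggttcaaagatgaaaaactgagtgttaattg

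The first stretch holds a TGACTCA and a TGACNNNGC match, the latter on the minus strand. The second holds TGAGTCA, the same palindrome read on the other strand. In the first, peaks of the 2 control libraries that called the region and of all 3 NRF2 siRNA libraries ran over the stretch. In the second, control replicate 3 and NRF2 siRNA replicate 1 had no peak over the stretch, and their peaks lay elsewhere in the region. Peaks of replicate 2 in both groups reached only the edge of the stretch and ended short of the TGAGTCA. The peak of control replicate 1 ended within that site, and only NRF2 siRNA replicate 3 had a peak over all of it. Over the whole regions there were 1 and 2 TGACTCA matches, and 50.9% and 58.7% of regions of like length hold at least 1. The match is thus common in regions of these lengths.

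At the JUN start itself, the mean level was lower with NRF2 siRNA, but the test was not passed. The start region (chr1:59247553-59251584) reached percentiles 57.3, 60.6 and 67.3 in control libraries, a mean of 61.8 ± 5.08 (SD, n = 3). NRF2 siRNA libraries reached 35.8, 57.9 and 53.5, a mean of 49.1 ± 11.7 (SD, n = 3). The groups overlapped slightly in percentile but not in score. The mean fell by 12.7 points, which was not past the test (exact permutation test, two-sided, p = 0.2, Benjamini-Hochberg adjusted 0.9 over 6 starts). Without a single library the difference ranged from -17.1 (NRF2 siRNA replicate 2) to -6.04 points (NRF2 siRNA replicate 1). The score difference was -0.20 ± 0.20 (SE; limma, adjusted p = 0.615). The other 2 JUN regions lie 29.8 and 39.1 kb upstream, in or over LINC01135. The first was high in every list, at percentiles 85.5 to 99.4, and its score difference was -0.21 (limma, adjusted p = 0.742). The JUN promoter is given as the member start with the largest score difference. No exact match to the 4 motifs searched (TGACTCA, TGACGTCA, TGACNNNGC and the CArG box that serum response factor binds) was found in its 250 bases, from 220 before to 30 after the start. A near match such as TGACATCA, which the stretch holds, was not counted.
JUN promoter, chr1:59249690-59249939, minus strand: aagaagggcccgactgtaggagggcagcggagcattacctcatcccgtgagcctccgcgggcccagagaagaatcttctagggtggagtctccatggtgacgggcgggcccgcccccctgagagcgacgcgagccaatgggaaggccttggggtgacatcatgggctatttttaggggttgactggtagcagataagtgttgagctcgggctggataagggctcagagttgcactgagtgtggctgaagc

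**Figure D2:**
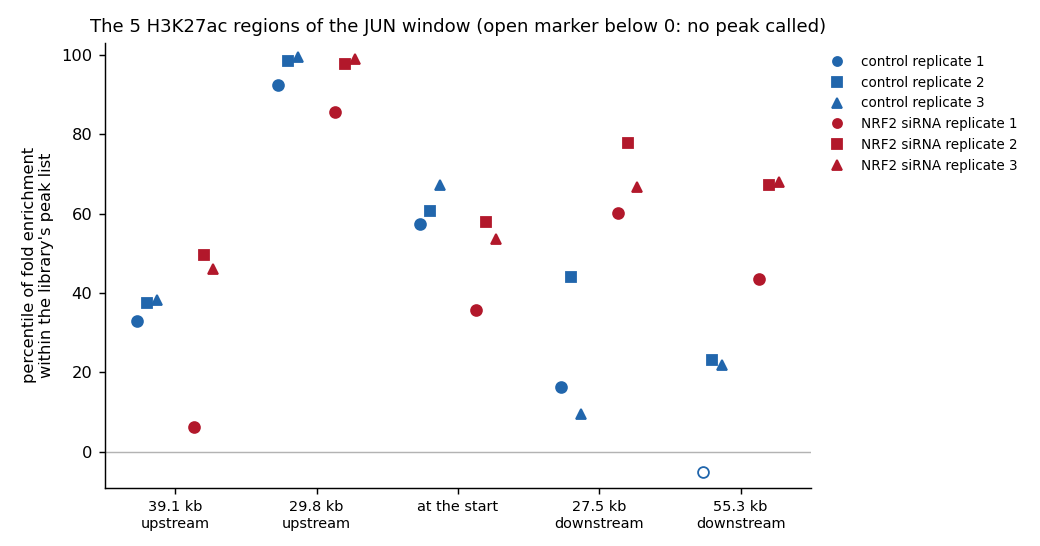
Percentile of fold enrichment within each library's own peak list (vertical axis) for the 5 JUN regions, placed by distance from the JUN start. Both downstream regions were higher in all 3 NRF2 siRNA libraries (red) than in any control library (blue). An open marker below 0 is a library without a peak, control replicate 1 at 55.3 kb downstream.

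The start regions of the coding genes whose scores over the 6 libraries were nearest to those of the JUN start were sought among 8648 such regions. The nearest were those of NPY1R (Euclidean distance 0.125), GTF2E2 (0.175) and TSSC4 (0.182). Their own score differences were -0.18, -0.14 and -0.07.

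JUNB and JUND, JUN paralogues that are weaker activators, had starts in wide merged regions. These widths are of peaks merged over libraries. A single peak spanned nearly the whole JUNB region only in replicate 3 of each group, and nearly the whole JUND region only in NRF2 siRNA replicate 3. The other libraries had separate peaks there. The JUND region also held the start of IQCN. The JUNB start lay in a region of 15013 bp (chr19:12892593-12907605), wider than 95.9% of the 6219 coding-start regions called in all 6 libraries. Its percentiles were 77.0, 81.7 and 85.9 in control and 74.5, 85.3 and 81.5 in NRF2 siRNA libraries. The values interleaved (score difference 0.02 ± 0.19, SE; limma, adjusted p = 0.969). Of the JUNB window the region that differed most was at the HOOK2 start, 11.8 kb upstream, with a difference of 0.24 ± 0.22 (SE; limma, adjusted p = 0.57). For JUND, the 11166 bp start region (chr19:18383751-18394916) stood at 86.7, 92.8 and 93.4 in control and at 88.8, 94.9 and 92.1 in NRF2 siRNA libraries. Again the groups overlapped (score difference 0.10 ± 0.20, SE; limma, adjusted p = 0.821). Upstream of JUND, an intergenic region at 46.4 kb had the largest difference of that window, -0.37 ± 0.23 (SE; limma, adjusted p = 0.378).

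JUND was the only member with a full TGACGTCA in the promoter window, 200 bases before the start, a match found in 2.63% of 19540 promoters. It also held TGACNNNGC on the strand opposite to the one printed, 90 bases before the start. On either strand, 12.1% of promoters held this motif. Capitals mark both.
JUND promoter, chr19:18392403-18392652, minus strand: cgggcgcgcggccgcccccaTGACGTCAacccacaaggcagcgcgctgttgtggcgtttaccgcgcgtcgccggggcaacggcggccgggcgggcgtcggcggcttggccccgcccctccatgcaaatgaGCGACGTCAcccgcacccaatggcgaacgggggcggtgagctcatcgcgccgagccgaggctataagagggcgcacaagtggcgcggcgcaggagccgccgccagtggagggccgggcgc

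Among the FOS proteins, which need a JUN partner to bind DNA, acetylation of the region holding the FOS start was high in every library. The FOS start region (chr14:75743092-75752098, 9007 bp) stood at percentiles 85.7, 83.7 and 83.2 in control libraries. NRF2 siRNA libraries had 82.9, 74.5 and 84.1. NRF2 siRNA replicate 2 was the lowest, and the groups overlapped (score difference -0.08 ± 0.23, SE; limma, adjusted p = 0.882). The region of the FOS window that differed most was intergenic, 47.4 kb upstream (chr14:75697212-75698094). It was a small peak at percentiles 48.2, 20 and 48.4 in control libraries. NRF2 siRNA replicates 2 and 3 had it at 2.58 and 1.98, and replicate 1 had no peak. The difference of -0.93 ± 0.30 (SE) did not pass without pairing (limma, adjusted p = 0.11), and passed with the replicate block (adjusted p = 0.0355).

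FOSB, whose induction is slower and whose truncated form is long lived, had no peak over its start in any list. The nearest region began 998 bases downstream, in an intron. It was called in control replicate 3 (percentile 39.2) and NRF2 siRNA replicate 2 (0.462), and was not tested. The 7 tested regions of the FOSB window included the starts of ERCC1 and VASP, and their median difference was 0.07. The largest was 0.38 ± 0.20 (SE) in an ERCC1 intron 22.9 kb upstream of FOSB (limma, adjusted p = 0.313), where percentiles of 33.8, 36.9 and 58.3 in control stood against 44.2, 54.4 and 65.9.

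FOSL1 encodes FRA1, a FOS protein prominent in epithelial tumours. Its start region (chr11:65665187-65668520) stood at 87.2, 91.0 and 95.6 in control and at 90.8, 92.0 and 90.6 in NRF2 siRNA libraries. The means, 91.3 ± 4.24 and 91.1 ± 0.79 (SD, n = 3 each), differed by less than the spread in control libraries (exact permutation test, p = 0.9). The score difference was -0.01 ± 0.21 (SE; limma, adjusted p = 0.979). Just upstream, 1.39 kb from the start, an intergenic region at 58.7, 54.9 and 42.4 in control libraries stood at 59.5, 62.1 and 68.7 with NRF2 siRNA. All 3 NRF2 siRNA values were above the control values in percentile, whereas the scores overlapped (0.41 ± 0.27, SE; limma, adjusted p = 0.424). When peaks up to 1 kb apart were also merged, this region joined its neighbour and the difference became -0.01.

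FOSL2 encodes FRA2, another FOS protein without a strong activation domain. Its start region had the highest mean percentile of the 6 member starts called in all libraries. It spanned 10519 bp (chr2:28611887-28622405), and stood at 94.3, 94.1 and 98.3 in control and at 87.4, 97.4 and 98.7 in NRF2 siRNA libraries. Its control mean of 95.6 ± 2.36 (SD, n = 3) was above that of 94.5% of coding-start regions called in all libraries. The lowest value belonged to the siRNA 28 library, and the groups overlapped (score difference 0.07 ± 0.26, SE; limma, adjusted p = 0.911). The FOSL2 promoter is shown because it holds an exact AP-1 site, TGACTCA (in capitals), which 3.14% of 19540 promoters hold on either strand. The site starts 4 bases after the FOSL2 start. Promoter sequence was read from GRCh37 at the canonical GENCODE start, as for JUN and JUND.
FOSL2 promoter, chr2:28615505-28615754, plus strand: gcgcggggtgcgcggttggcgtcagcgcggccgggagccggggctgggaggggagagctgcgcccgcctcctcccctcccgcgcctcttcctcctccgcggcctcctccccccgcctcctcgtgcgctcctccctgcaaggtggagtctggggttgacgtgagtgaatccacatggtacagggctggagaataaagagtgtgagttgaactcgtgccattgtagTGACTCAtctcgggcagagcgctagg

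Farther from FOSL2, the groups differed in opposite directions on either side of the gene. A region 49.2 kb upstream (chr2:28564590-28566537) was called in all 3 control libraries, at percentiles 5.30, 35.8 and 53.7. It was called in 0 NRF2 siRNA libraries. The difference of -1.14 ± 0.30 (SE) did not pass without pairing (limma, adjusted p = 0.0622). It passed with the replicate block (adjusted p = 0.0445) and in replicates 2 and 3 alone, where it was -1.55 (limma, adjusted p = 0.011). Downstream, at 52.3 kb (chr2:28668020-28673434), the order was reversed in the siRNA 30 pairs. That region, singled out after its values were seen, stood at 40.0, 15.2 and 29.6 in control and at 38.9, 62.7 and 68.1 in NRF2 siRNA libraries. A long peak of NRF2 siRNA replicate 2 joins peaks that are separate in other libraries. The value of control replicate 2 is that of its peak farther from the gene, and its nearer peak stood at 8.29. In percentile the siRNA 28 pair was nearly level, 40.0 against 38.9. The score difference was 0.88 ± 0.28 (SE; limma, adjusted p = 0.106, or 0.0618 with the replicate block), and 1.21 in replicates 2 and 3 alone (adjusted p = 0.013). Both regions are intergenic. The upstream one holds a single AP-1 site, at the centre of the stretch shown, where all 3 control libraries had a peak. At least 1 such site is held by 44.3% of regions of like length.
49.2 kb upstream of FOSL2, chr2:28565388-28565587, plus strand: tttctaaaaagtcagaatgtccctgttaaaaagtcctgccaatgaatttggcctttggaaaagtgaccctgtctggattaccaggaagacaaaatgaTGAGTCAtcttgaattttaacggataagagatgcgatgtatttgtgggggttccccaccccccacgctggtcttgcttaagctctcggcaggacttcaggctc

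**Figure D3:**
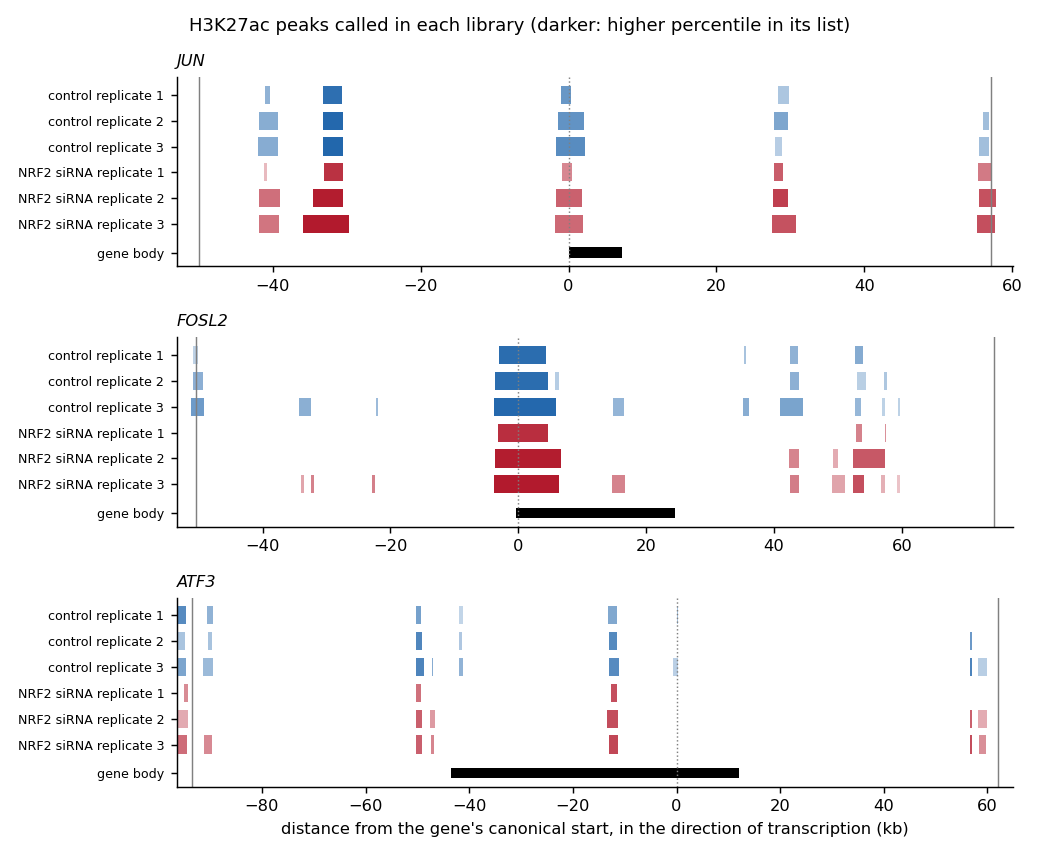
Peaks called in each library over the windows of JUN, FOSL2 and ATF3, by distance from the gene's start in the direction of transcription (horizontal axis, kb). Control libraries are blue, NRF2 siRNA libraries red, darker bars have a higher percentile in their list, thin grey lines mark the window's ends and the black bar is the gene body. The region 49.2 kb upstream of FOSL2 and that 41.2 kb upstream of ATF3 have bars in the 3 control rows alone.

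ATF3, a stress-induced factor that often represses, and BATF3, a factor of dendritic and T cells, had little acetylation at their starts. The ATF3 start region (chr1:212781388-212782378) was called in control replicates 1 and 3 alone, at percentiles 19.6 and 7.76, and the start itself lay under the peak of control replicate 3 alone. BATF3 had a peak over its start only in control replicate 3, at percentile 12.2. Neither region had the 3 calls needed for the test. ATF3 has an alternative upstream transcript, and the 2 regions of its window called in all 6 libraries lay along that part of the gene and above it. One in an ATF3 intron 11.2 kb upstream of the canonical start stood at 42.6, 68.4 and 67.5 in control and at 68, 69.4 and 73 in NRF2 siRNA libraries. Control replicate 1 was far below the rest (score difference 0.32 ± 0.21, SE; limma, adjusted p = 0.418). A region 56.6 kb downstream of the canonical start, shared with BATF3, reached similar percentiles but had no peak in replicate 1 of either group. In replicates 2 and 3 it stood at 55 and 73.8 in control and at 57.7 and 68.9 in NRF2 siRNA libraries.

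Another ATF3 intron region, 41.2 kb upstream of the canonical start (chr1:212740051-212740884), was the second region called in all 3 control and 0 NRF2 siRNA libraries. Control percentiles were 2.81, 14.7 and 32.5. The difference was -0.73 ± 0.30 (SE; limma, adjusted p = 0.19), and -0.96 in replicates 2 and 3 alone (adjusted p = 0.0372).

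Beyond the 3' end of ATF3, a region 58.2 kb from its start (chr1:212840284-212842032), which the BATF3 window shares, had the opposite sign. It was called in control replicate 3 (percentile 8.94) and in NRF2 siRNA replicates 2 and 3 (14.8 and 31.0). The score difference was 0.62 ± 0.22 (SE; limma, adjusted p = 0.136), and 0.81 in replicates 2 and 3 alone (adjusted p = 0.0448). Neither library of the siRNA 28 pair had a peak there, and their score difference of 0.25 comes from the lengths of their lists alone. Calls in a single group made up 2 of the 61 regions on the control side, where 2.27% of all regions fell, and 0 on the NRF2 siRNA side, where 0.830% did. Among the 61 regions, the number called was 38, 41 and 57 in control and 29, 39 and 45 in NRF2 siRNA libraries, lowest in the shortest list and highest in the longest. The upstream FOSL2 region and the ATF3 intron region were no longer one-sided in lists of equal length, where 0 regions were on the control side.

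**Figure D4:**
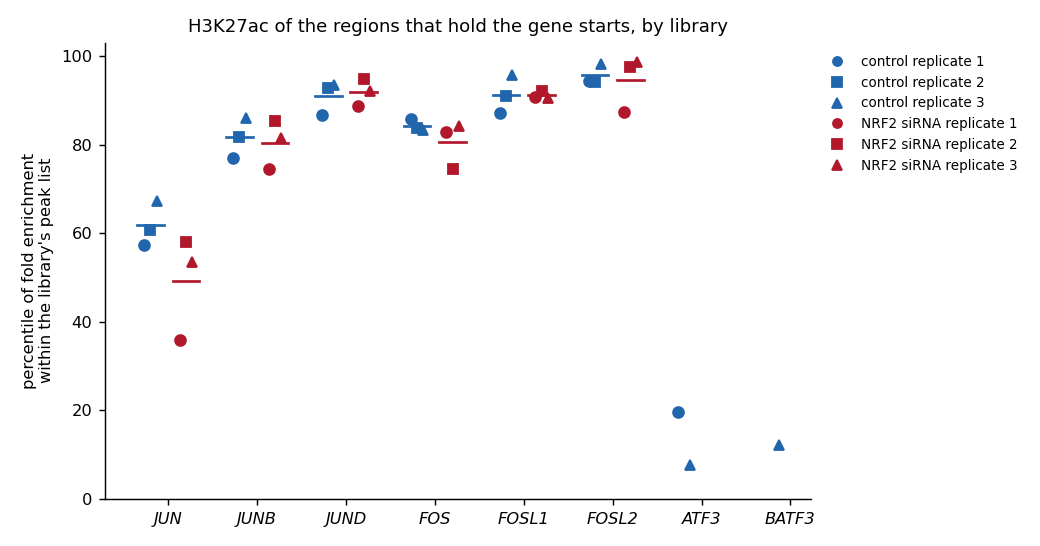
Percentile of fold enrichment of the region holding each member's start, where one was called (vertical axis, the highest peak of the region), for control (blue) and NRF2 siRNA (red) libraries, with the mean of each group of 3 as a line. The start regions of JUNB, JUND, FOS, FOSL1 and FOSL2 lie above 70 in all libraries, JUN lies between 35.8 and 67.3, and ATF3 and BATF3 were called in control libraries alone. A missing point is a library without a peak, and FOSB had none.

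By level, the regions that hold the member starts stood in control libraries in the order FOSL2 (95.6), FOSL1 (91.3), JUND (91.0), FOS (84.2), JUNB (81.6) and JUN (61.8), as mean percentiles. SDs ran from 1.31 to 5.08, and FOSL1 and JUND, and FOS and JUNB, as neighbours in that order, did not differ beyond their spread. These values are those of the highest peak of the region, which in JUND and FOS was not always the one over the start. The peak over the canonical start stood at 83.2, 84.5 and 93.4 for JUND and at 85.7, 77.8 and 83.2 for FOS in control libraries. In NRF2 siRNA libraries these were 82.8 and 92.1 (replicates 2 and 3) for JUND and 82.9, 74.5 and 81.2 for FOS. NRF2 siRNA replicate 1 had no peak over the JUND and FOSL1 canonical starts themselves. For JUN, JUNB and FOSL2 the peak over the start was the highest in every library. The median over the 6219 coding-start regions called in all libraries was 73.1, and JUN alone of the 6 lay below it. The order FOSL2 first and JUN last held in the NRF2 siRNA means, 94.5 and 49.1. In none of the 6 did the difference between groups pass (exact permutation tests, p from 0.2 to 0.9, each 0.9 after Benjamini-Hochberg adjustment over the 6). The smallest p that 3 libraries against 3 allow is 0.1.

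Bases under peaks were summed over each window as a whole. Joined, the windows span 989 kb, of which 104, 123 and 170 kb were covered in control and 80.1, 128 and 160 kb in NRF2 siRNA libraries. The means of 132 ± 34.3 and 123 ± 40.1 kb (SD, n = 3 each) differed by less than the spread (exact permutation test, p = 0.8), and the difference turned from -9.57 to 11.7 kb without NRF2 siRNA replicate 1. JUN gained the most in its window, from 9.61 ± 3.12 to 13.1 ± 5.31 kb (SD, n = 3 each; exact permutation test, p = 0.4), and it gained in all 3 pairs (p = 0.25 by an exact permutation within pairs, the smallest it allows). Without a single library the JUN gain ranged from 1.16 (NRF2 siRNA replicate 3) to 6.40 kb (NRF2 siRNA replicate 1). FOS dropped by 5.02 kb, from 18.7 ± 4.69 to 13.7 ± 5.48 kb (SD, n = 3 each; exact permutation test, p = 0.5), with a range from -7.69 kb (without NRF2 siRNA replicate 3) to -2.22 kb (without NRF2 siRNA replicate 1). After adjustment over the 9 windows, 0 passed, with adjusted p of 0.9 or 1, and none had an unadjusted p under 0.05, which this design cannot give.

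**Figure D5:**
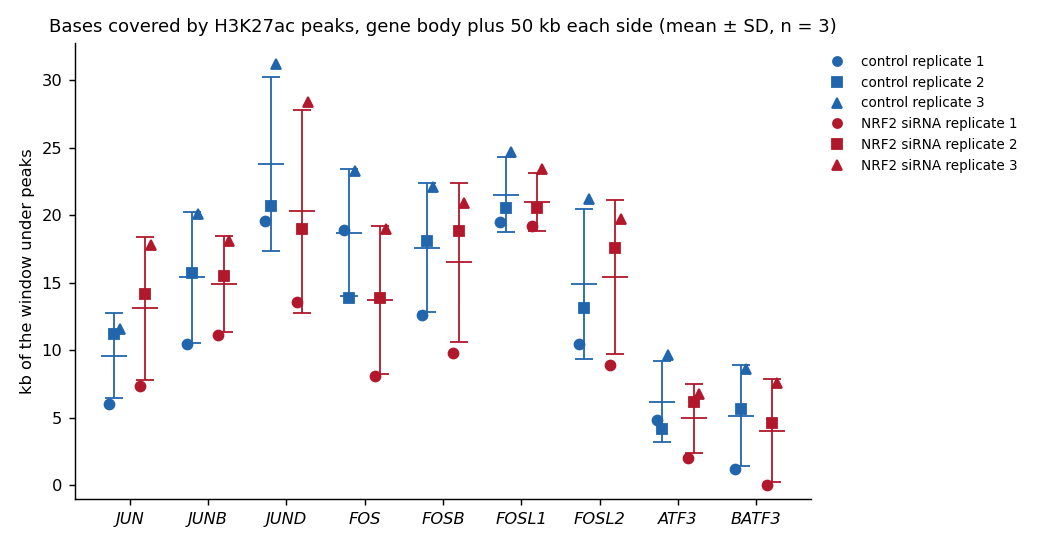
Bases under H3K27ac peaks in each gene's window, the gene body with 50 kb on each side (vertical axis, kb), with a point for each library and the mean ± SD of each group of 3. Groups overlap in every window, and the lowest value of every window belongs to a replicate 1 library, the pair with the shortest lists.

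Motifs were counted over whole regions as a description. The AP-1 site TGACTCA was found on either strand in 26 of the 41 tested regions, 63.4%, against 54.5% of all tested regions, or 0.286 against 0.276 matches per kb. TGACNNNGC was in 68.3% against 63.7%. TGACGTCA was in 4 regions, 9.76% against 3.48%. The AP-1 gene regions were also richer in G and C, with a median of 52.5% against 45.4%, and the part of base composition in these shares was not tested.

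Genes around AP-1 were read from the same fit, in which 3.39% of all regions fell, 2.01% rose and 48.5% had a difference below 0. Of 8 other AP-1 and ATF family genes, with 39 tested regions, 1 region fell and 0 rose, with a median of 0.01. The call was 49.2 kb from the start of ATF7, in an intron. In the windows of 16 immediate early genes and their regulators, 4 of 61 regions fell and 0 rose (median -0.05). These lay near EGR2, IER5, KLF2 and MAFF, none at the gene's own start. Among 11 kinases upstream of AP-1, 1 of 38 regions fell, near MAP3K7, and 0 rose (median -0.10). Of 16 genes known as AP-1 targets, 3 of 56 regions rose and 1 fell (median 0.15). A region near VIM, the intermediate filament vimentin, was among those that rose, and the fall was near CCND1, the G1 cyclin. Neither held the start of the named gene.

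Canonical NRF2 genes, in the same libraries, had lower scores with NRF2 siRNA in most of their regions. Of their 39 tested regions, 3 fell and 0 rose, 32 (82.1%) had a difference below 0, and the median was -0.52. The start region fell for SRXN1, which repairs oxidised peroxiredoxins, with a score difference of -1.06 ± 0.21 (SE). For GCLC, the catalytic subunit of glutathione synthesis, a region at an alternative start fell (-1.37 ± 0.22, SE). That region lay 64711 bases from the canonical GCLC start. The adjusted p of the SRXN1 and GCLC regions in limma were 0.0267 and 0.0134. SRXN1 stood at percentiles 94.1, 92.3 and 92.1 in control and at 56.8, 57.9 and 70.7 in NRF2 siRNA libraries. Both calls were lost without some single library, where the adjusted p in limma reached 0.126 and 0.0698. The difference between these genes and the AP-1 genes was not tested.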

How the data were processed

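H3K27ac ChIP-seq of 6 A549 libraries was analysed, and the 2 input samples were not analysed here. Per the labels and the methods, the authors trimmed reads with cutadapt 1.15, aligned them to hg19 with Bowtie2 2.2.6, removed reads with a mapping quality under 20, called broad peaks with MACS2 2.1.0.20151222 in each library and took out blacklisted peaks. Each deposited list gives a peak's position, an integer score, a ratio of fold enrichment over background, and a p-value and q-value as −log10. Which library served as background is not given in the sources used here. A longer list can come from deeper sequencing, so values were compared by rank.

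Peaks were merged (overlap of at least 1 base). Chromosome names and lengths were checked against GRCh37, with 0 regions past an end. Genes came from GENCODE 44 lifted to that build. A percentile is the place of a region's highest fold enrichment among the peaks of that library's own list. Normal scores of ranks, with uncalled regions at the tied lowest rank, were fitted with limma 3.58.1 (lmFit, eBayes) in R 4.3.3 over 32673 regions called in at least 3 libraries, Benjamini-Hochberg adjusted over all of them (threshold 0.05). The step was tested on simulated data. For single values per library, two-sided exact permutation tests over libraries were used. Other steps used Python 3.11.15 and scipy 1.17.1.

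Same-numbered libraries, by the numbers in the sample titles, deviated together from their group means (r = 0.398, 0.199 and 0.363). The main fit did not pair them, and the replicate block was an alternative fit. Differences within pairs follow these numbers. Other alternatives were equal list lengths (23885 peaks), a q-value of at most 1e-05, other values, merging, filters, variance models and windows, replicates 2 and 3 only, and leaving out each library. The peak over the start alone, and the overlap of groups in regions called in all 6 libraries, were added after the data were seen. Regions named were each gene's start region, called or one-sided regions, and that with the largest difference, and for other lists genes whose own start was called. The other called regions are named by their nearest listed gene after their values were seen. Members, gene lists and motifs were chosen with earlier results of these data known. Some called regions and sequences are not reported here.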

Additional observations from a re-analysis of the deposited data

Results flagged for a closer look

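The siRNA 28 pair and both siRNA 30 pairs had opposite signs in 9 of the 41 regions tested (22.0%, against 21.9% of all regions). Among the regions named by rule there were 2. The intergenic region 46.4 kb upstream of JUND (JUND_up_46447) had a score difference of 0.045 in the siRNA 28 pair and of -0.87 and -0.28 in the siRNA 30 pairs. The FOSL2 start region (FOSL2_at_0) had -0.31 in the siRNA 28 pair and 0.38 and 0.13 in the others. The difference between the siRNAs was not tested, and it cannot be told apart from the batch of replicate 1.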

How the results depend on the processing

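Without pairing, 0 of the 41 AP-1 regions fell (3.39% of all regions tested) and 1 rose (2.01%). With the replicate block, 2 of 41 fell (6.62%) and 2 rose (5.72%). Those that rose numbered 2 of 35 with equal list lengths (5.11%) and 3 of 35 with the block and equal lengths. With a trended robust variance 2 of 41 rose. At a q-value of at most 1e-05, 0 of 29 rose, and 0 of 24 in windows of 20 kb. The JUN region that rose in the main fit lies outside those windows and has no result at the stricter q-value. Without a filter on calls 1 of 61 fell and 1 rose. In replicates 2 and 3 alone 2 of 41 fell (6.04%) and 3 rose (5.26%). Leaving out a library gave 0 to 2 of 41 in either direction. Here and below, a count without a share of all regions beside it is a description only. The median was 0.073 at the stricter q-value, -0.00014 in regions called in all 6 libraries, -0.046 with no filter, -3.8e-05 in replicates 2 and 3, -0.015 in windows of 100 kb and 0.0038 to 0.06 without a library.

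Width gave 1 region higher with equal lengths, and 0 to 1 lower and 0 to 0 higher without a library. One-sided regions on the control side were 0 with equal lengths or the stricter q-value, 1 in windows of 20 kb and 2 to 4 without a library. On the NRF2 siRNA side there were 1 with equal lengths, 1 in replicates 2 and 3 and 0 to 1 without a library.

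Covered length changed by 0.67 kb over all windows at the stricter q-value, and by 0.55 (JUNB), 0.47 (FOSB), 0.23 (ATF3) and 0.92 kb (BATF3), and by 0.038 (FOSL1) and 0.20 kb (BATF3) with equal lengths. Without a library it ranged from -28.1 to 11.7 over all windows, and in kb from -3.04 to 1.79 for JUNB, -7.57 to 0.169 for JUND, -3.60 to 2.23 for FOSB, -1.69 to 1.06 for FOSL1, -1.78 to 3.68 for FOSL2, -2.26 to 0.478 for ATF3 and -3.09 to 0.922 for BATF3. Percentile differences at the starts were 0.21 for JUNB with equal lengths and -0.80 for JUND at the stricter q-value. Without a library they ranged from -3.57 to 1.85 (JUNB), -1.16 to 2.54 (JUND), -2.17 to 2.06 (FOSL1) and -3.14 to 2.48 (FOSL2).

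The score difference was 0.00033 at the FOSL1 start with a length-weighted mean, -0.012 for the region 1.39 kb upstream of FOSL1 with wider merging and -3.8e-05 at the JUNB start in replicates 2 and 3. Without a library it ranged from -0.09 to 0.086 at the FOSL1 start, -0.22 to 0.056 at the FOS start, -0.036 to 0.091 at the JUNB start and -0.10 to 0.29 at the FOSL2 start. The cause of these moves was not tested. With the peak over the start in place of the whole region, chosen after the data were seen, the 4 starts with a value in every library kept their direction.

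The lists hold no read counts, and acetylation below a library's calling threshold is not seen in them. Windows by distance do not say which gene a region acts on.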
